A study of Rattus norvegicus with 52 samples.

Results

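Lungs of rats that received DDAC were compared with lungs of rats that received ABD at the same dose number, 0.125, over all genes counted. The series describes its agents as quaternary ammonium compounds, a class of cationic surfactants used as disinfectants. DDAC is the usual abbreviation of didecyldimethylammonium chloride, although the labels do not spell it out, and ABD is a code in the labels for which no structure is given here. The comparison was defined by the sample titles alone: 4 libraries titled DDAC 0.125 against 4 titled ABD 0.125, that is 8 of the 52 libraries of the series, with no vehicle library in the contrast.

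All groups used here were wild-type SD rats given 1 instillation into the trachea, with 1 lung library per sample. The groups compared were DDAC at 0.125 and 0.25, ABD at 0.125 and 0.25, and a Control group that received DW, usually distilled water, with 4 libraries each. All 13 groups entered the fit, and the others, also of 4 libraries, were DDAC at 0.0625, ABD at 0.5, ADEB18 at 0.125, 0.25 and 0.5, and BKC at 0.25, 0.5 and 1, where ADEB18 and BKC are the labels' names for the remaining compounds. The labels give no unit for the dose and no age, sex, interval after dosing or hour at which lungs were taken. They do not state that each library is a separate animal, although the series text speaks of n = 4 per group, so p-values measure the spread between these libraries. Libraries were made by 3' mRNA sequencing, which counts reads near the end of each transcript.

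Total counts were 8775856 to 10700269 in the DDAC libraries and 8026084 to 11556937 in the ABD libraries, against 8026084 to 13852249 over the series. Markers of lung were abundant in all 8 libraries, among them Sftpc, the surfactant protein of alveolar type 2 cells, at 7772 to 11089 CPM (counts scaled to a common library size). 3 of the 8 libraries stood apart. Summed CPM of 18 cardiac muscle genes was 4670 in DDAC replicate 2, 6849 in ABD replicate 2 and 3736 in ABD replicate 3, against 125.2 to 381.1 in the other 5, and genes of fat and of basal and mucous airway cells were high in the same 3 libraries. The share of counts on mitochondrial ribosomal RNA was 0.648 to 1.05% in DDAC libraries and higher, up to 1.48%, in every ABD library. The part of these differences in the results below was not tested beyond refits without the 3 libraries, whose values are given.

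The circadian clock is a loop of transcription factors present in most cells, the lung included. BMAL1 pairs with CLOCK or its relative NPAS2 and switches on the Period and Cryptochrome genes, whose proteins then repress that pair. The same activators drive the nuclear receptors REV-ERB alpha and beta (Nr1d1 and Nr1d2), which repress Bmal1, and the factors DBP, TEF and HLF, which act through D-box elements. Transcripts of these genes therefore rise and fall each day, and those that the activators drive peak at other hours than Bmal1 and Npas2.

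At 0.125, clock genes made the clearest difference between the compounds. Dbp was 10.6-fold, Nr1d1 8.003-fold and Per3 4.55-fold higher in DDAC than in ABD lungs, and Per2, Nr1d2, Tef and Hlf were also higher, while Bmal1 and Npas2 were lower. No gene of the inflammatory or immune cell lists was called by edgeR over all 52 libraries, while edgeR with only the 8 libraries called a complement gene. DESeq2, which called 730 of all genes tested, called members of 3 of these lists. Of 17796 genes tested, 350 differed at an adjusted p under 0.05 (edgeR quasi-likelihood test, Benjamini-Hochberg adjustment over all genes), 187 of them higher in DDAC and 163 lower, and 2825 had an unadjusted p under 0.05. Called genes were thus 1.05% of those tested on the higher side and 0.916% on the lower side. The median log2 fold change of all genes was -0.01.

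The called genes were mostly of modest size, with a median absolute log2 fold change of 0.75. At least 2-fold differences were reached by 84 of the higher and 30 of the lower genes. The cutoff that the series text names, 2-fold with an unadjusted p under 0.05, gave 663. The number of calls moved with the library left out. It was 75, 124, 400 and 308 without ABD replicates 1 to 4, and 122, 191, 117 and 355 without DDAC replicates 1 to 4. Such refits also hold fewer libraries, and the part of group size in lost calls was not tested. Without the 3 libraries that held cardiac and fat RNA the number of calls was 45, of which 20 were higher and 25 lower, and 37 of these were among the 350. That refit kept only DDAC replicates 1, 3 and 4 and ABD replicates 1 and 4. Calls lost in it, here and below, were therefore not tested apart from the smaller groups.

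**Figure D1:**
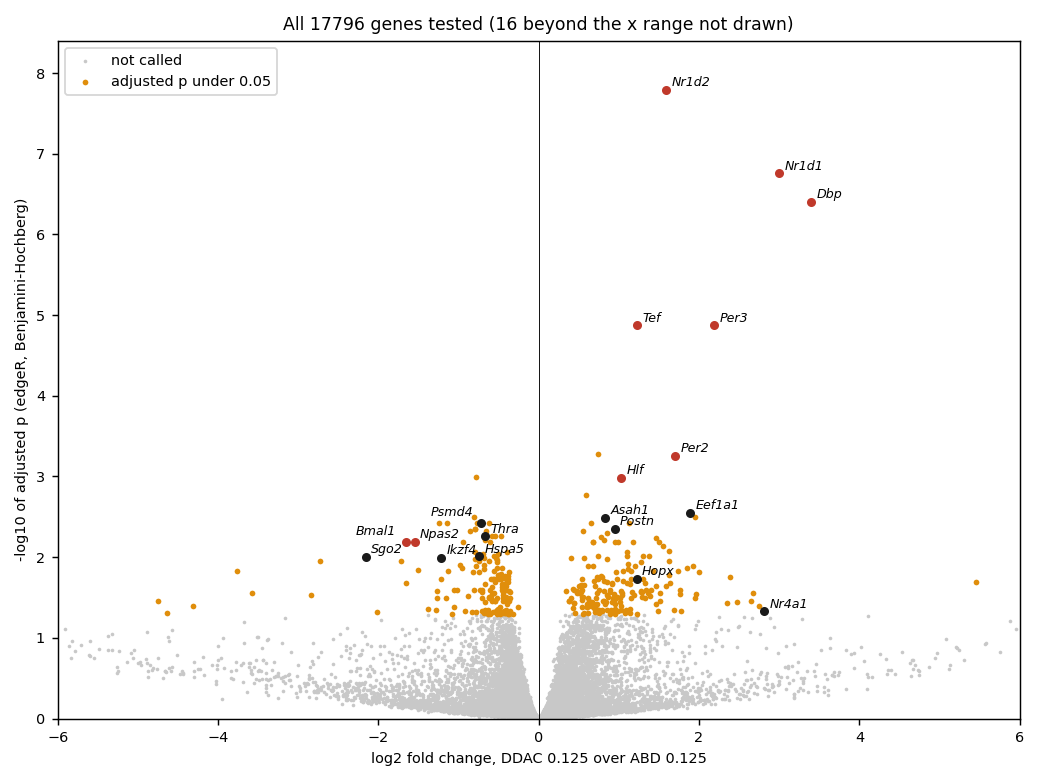
Each point is 1 of the 17796 genes tested, with the log2 fold change of DDAC over ABD at 0.125 on the x axis and -log10 of the edgeR adjusted p on the y axis. Orange points are called, red points are called clock genes and black points are other genes named in the text. Nr1d2, Nr1d1 and Dbp lie highest.

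A total of 17 genes kept their call in all 15 alternative fits, 9 higher and 8 lower in DDAC. Clock genes were 6 of the 9: Dbp, Nr1d1, Per3, Per2, Nr1d2 and Tef. The other 3 were Eef1a1, a translation elongation factor, Mat2b, the regulatory subunit of methionine adenosyltransferase, and Oxr1, a gene of resistance to oxidative damage. The 8 lower genes were Fam124b, Ikzf4, Mme, Tmprss2, Bcl9l, Psmd4, Pik3r3 and Herc1. When 1 of the 8 libraries was left out at a time, 45 of the 350 genes stayed called in every fit, 22 higher and 23 lower.

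Promoters are shown for 4 called clock genes and for Fam124b because they hold short words that clock factors are known to recognise. RefSeq promoters, on the assembly GRCr8, run from 250 bases before to 50 bases after the annotated start, read along the gene. Words searched on both strands were the E-box CACGTG, its variant CACGTT, the D-box TTATGTAA, the REV-ERB and ROR element TAGGTCA and the cyclic AMP element TGACGTCA. Of all 33469 promoters of this length, 6.42% held the E-box, 4.83% the variant, 0.893% the D-box, 2.63% the REV-ERB and ROR element and 1.83% the cyclic AMP element. A promoter was found for 18 of the 23 clock genes listed, and these words were in 4, 3, 1, 1 and 0 of the 18, in that order. Clock genes that were not called held words too. Ciart, Bhlhe40 and Bhlhe41 held the E-box, Ciart at 3 places, and Cry2 held the variant. Of the clock genes with the E-box only Tef was called. Of the 18 other named genes with a promoter, 3 held a word: Fam124b, Nup98 with CACGTT and Wdr86 with CACGTG. Fam124b is shown beside Bmal1 because both hold TAGGTCA near the start. Matched words are in capitals below.

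Bmal1, chr1:176766078-176766377, plus strand, is shown for TAGGTCA 16 bases before the start.
Bmal1: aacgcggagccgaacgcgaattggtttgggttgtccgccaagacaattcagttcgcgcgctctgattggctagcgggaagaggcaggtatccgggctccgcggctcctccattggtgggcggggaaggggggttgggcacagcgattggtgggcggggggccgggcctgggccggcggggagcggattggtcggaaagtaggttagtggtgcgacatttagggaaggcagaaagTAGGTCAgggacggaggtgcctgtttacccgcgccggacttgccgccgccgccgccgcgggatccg
Per2, chr9:99496944-99497243, minus strand, is shown for TTATGTAA 192 and CACGTT 62 bases before the start.
Per2: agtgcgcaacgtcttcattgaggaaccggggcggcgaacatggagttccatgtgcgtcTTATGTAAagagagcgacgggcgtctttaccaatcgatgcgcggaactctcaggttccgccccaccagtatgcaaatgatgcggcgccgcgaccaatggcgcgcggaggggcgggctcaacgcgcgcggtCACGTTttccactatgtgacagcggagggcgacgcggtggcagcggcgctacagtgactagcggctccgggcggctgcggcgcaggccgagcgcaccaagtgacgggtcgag
Nr1d1, chr10:84231763-84232062, minus strand, is shown for the variant E-box, read here as AACGTG, 174 bases before the start.
Nr1d1: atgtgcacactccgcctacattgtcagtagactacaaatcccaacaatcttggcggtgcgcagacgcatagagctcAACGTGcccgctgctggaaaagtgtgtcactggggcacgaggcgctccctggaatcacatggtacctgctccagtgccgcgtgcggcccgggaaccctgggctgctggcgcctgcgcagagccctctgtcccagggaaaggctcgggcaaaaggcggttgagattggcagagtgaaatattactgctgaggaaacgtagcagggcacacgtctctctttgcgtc
Tef, chr7:115206577-115206876, plus strand, is shown for CACGTG 198 bases before the start.
Tef: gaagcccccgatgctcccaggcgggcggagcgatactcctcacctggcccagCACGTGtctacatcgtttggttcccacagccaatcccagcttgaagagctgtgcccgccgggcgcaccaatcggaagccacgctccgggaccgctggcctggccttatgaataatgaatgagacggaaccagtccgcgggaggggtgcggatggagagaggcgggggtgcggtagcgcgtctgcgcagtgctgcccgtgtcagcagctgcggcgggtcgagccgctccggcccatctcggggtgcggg
Fam124b, chr9:88981927-88982226, minus strand, is shown for TAGGTCA 19 bases before the start.
Fam124b: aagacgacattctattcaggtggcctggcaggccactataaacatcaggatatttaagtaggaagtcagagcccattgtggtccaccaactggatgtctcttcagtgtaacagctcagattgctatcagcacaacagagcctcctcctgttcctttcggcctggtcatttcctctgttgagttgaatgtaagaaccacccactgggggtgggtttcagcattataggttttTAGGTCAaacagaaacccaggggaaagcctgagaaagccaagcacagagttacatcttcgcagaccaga

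The windows of Dbp, Nr1d2, Per3 and Npas2 held none of these words. A match is a run of letters and was not tested as a binding site, and the absence of a word concerns this window only.

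Among activators of the clock, Npas2 stood at 8.84, 7.19, 4.33 and 6.42 CPM in DDAC replicates 1 to 4 and at 15.0, 14.5, 21.5 and 27.5 in ABD replicates 1 to 4. Every DDAC library was below every ABD library, which the rule for naming the 15 largest called changes in each direction required. Over all genes, 5.19% had every DDAC library above every ABD library and 4.64% had every DDAC library below. The log2 fold change of Npas2 was -1.55 ± 0.32 (n = 4 and 4) with an edgeR adjusted p of 0.00643. Here and below the value after ± a log2 fold change is the SE from the fit over all 52 libraries. Bmal1 was at 11.0, 2.06, 3.68 and 3.54 CPM in DDAC and at 11.8, 11.0, 20.6 and 20.2 in ABD, and its log2 fold change was -1.65 ± 0.34 (edgeR adjusted p = 0.00648). Replicate 1 of DDAC lay within the ABD range for Bmal1, so these groups overlapped. Clock itself, which encodes the common partner of BMAL1, differed by 0.21 ± 0.22 and was not called (95% interval -0.23 to 0.66).

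Period genes encode repressors of the loop. Per3 measured 63.6, 64.8, 76.2 and 78.7 CPM in DDAC and 13.3, 18.7, 19.8 and 10.04 in ABD, a log2 fold change of 2.19 ± 0.30 (edgeR adjusted p = 1.34e-05). Per2 measured 69.4, 100.7, 91.4 and 76.6 CPM in DDAC and 15.7, 24.9, 35.3 and 28.1 in ABD, a log2 fold change of 1.70 ± 0.28 (edgeR adjusted p = 0.000552). Neither gene's groups overlapped, which the rule for naming required of Per3. Per1, the Period gene that is also induced by stress hormones, was not called at 0.46 ± 0.46, with an interval from -0.47 to 1.39. Of the Cryptochrome repressors, Cry1 was at -0.83 ± 0.24 (edgeR adjusted p = 0.0576) and Cry2 at 0.48 ± 0.18 (edgeR adjusted p = 0.144), neither of them called.

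REV-ERB genes were both higher in DDAC. Nr1d1 stood at 200.2, 147.3, 143.3 and 129.5 CPM in DDAC and at 12.6, 26.4, 28.1 and 9.91 in ABD, with a log2 fold change of 3.00 ± 0.34 (edgeR adjusted p = 1.75e-07). Nr1d2 stood at 136.4, 133.9, 142.8 and 136.3 CPM in DDAC and at 45.8, 51.2, 53.9 and 31.7 in ABD, with a log2 fold change of 1.59 ± 0.16 (edgeR adjusted p = 1.61e-08). Libraries of both compounds were well apart for these genes, and the rule for naming required no overlap of Nr1d1. Nr1d1 overlaps Thra, the thyroid hormone receptor alpha gene, in the RefSeq annotation, and the strand setting of the counting is not given in the sources used here. Thra moved the other way, from 297 to 408 CPM in ABD to 182 to 236 in DDAC, a log2 fold change of -0.67 ± 0.14 (edgeR adjusted p = 0.00554).

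Output factors of the PAR bZIP family, which bind D-boxes, were higher as well. Dbp measured 185.5, 210.6, 208.0 and 149.0 CPM in DDAC and 16.6, 20.2, 22.2 and 11.9 in ABD, a log2 fold change of 3.40 ± 0.40 (edgeR adjusted p = 3.97e-07). Tef measured 49.8, 57.7, 61.99 and 45.7 CPM in DDAC and 25.5, 22.9, 22.6 and 20.8 in ABD, at 1.23 ± 0.17 (edgeR adjusted p = 1.34e-05). Hlf measured 96.7, 115.4, 116.2 and 74.3 CPM in DDAC and 63.0, 42.8, 41.2 and 49.9 in ABD, at 1.03 ± 0.18 (edgeR adjusted p = 0.00103). For all 3 factors every DDAC library was above every ABD library, which the rule for naming required of Dbp. Nfil3, a repressor that competes for D-boxes, had all DDAC libraries below all ABD libraries, yet its difference of -1.10 ± 0.41 was not called (edgeR adjusted p = 0.14).

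In all, 4 of 13 core clock genes were called, 2 higher and 2 lower, and 5 of 10 output and REV-ERB genes, all higher. Median log2 fold changes of these lists were 0.17 and 0.75, beside -0.01 over all genes. The shares called over all genes were 1.05% higher and 0.916% lower. Clock genes not called included Clock, Per1, Cry1, Cry2, Rora, Csnk1d and Nfil3. Among them Rora and Csnk1d had narrow intervals, -0.21 to 0.55 and -0.25 to 0.08. All 9 called clock genes kept their call when 1 library was left out. Without the 3 libraries that held cardiac and fat RNA, Hlf, Bmal1 and Npas2 were no longer called, with a highest edgeR adjusted p of 0.122 for Hlf. Bmal1 was also not called with only the 8 libraries, and its adjusted p over all alternatives reached 0.105.

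The levels of these genes over all 13 groups of the series were set side by side as a description. Dbp averaged 17.8 ± 4.54 CPM (SD, n = 4) at ABD 0.125 and 20.8 ± 9.06 in Control, against 81.6 ± 24.1 at ABD 0.25 and 63.0 ± 45.1 at ABD 0.5. ADEB18, another coded compound, had 99.3 ± 22.9 CPM at 0.125, 96.9 ± 56.7 at 0.25 and 110.5 ± 9.70 at 0.5. BKC had 126.4 ± 30.3 CPM at 0.25, 136.4 ± 45.4 at 0.5 and 110.0 ± 55.4 at 1. DDAC had 139.8 ± 38.4 at 0.0625, 188.3 ± 28.5 at 0.125 and 196.5 ± 59.7 at 0.25. For 8 of the 9 called clock genes ABD 0.125 and Control were the 2 groups at one end of the order of group means, and DDAC 0.125 was first or next to first at the other end for 8 of the 9. The exceptions were Hlf, for which ABD 0.5 at 55.4 and BKC 1 at 55.5 CPM lay below Control at 57.8, and Npas2, for which BKC 1 and DDAC 0.25 lay below DDAC 0.125. The hour at which the groups were sampled is not in the labels, so hour and compound cannot be told apart for these rhythmic genes. Library numbers in the headers of the counts ran from 1 to 6 in Control, 7 to 12 at ABD 0.125 and 13 to 24 at higher ABD doses. They ran from 27 to 42 in ADEB18, 44 to 60 in BKC and 62 to 78 in DDAC. Control and ABD 0.125 thus held the lowest numbers and DDAC the highest. Whether the clock differences follow this order was not tested.

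**Figure D2:**
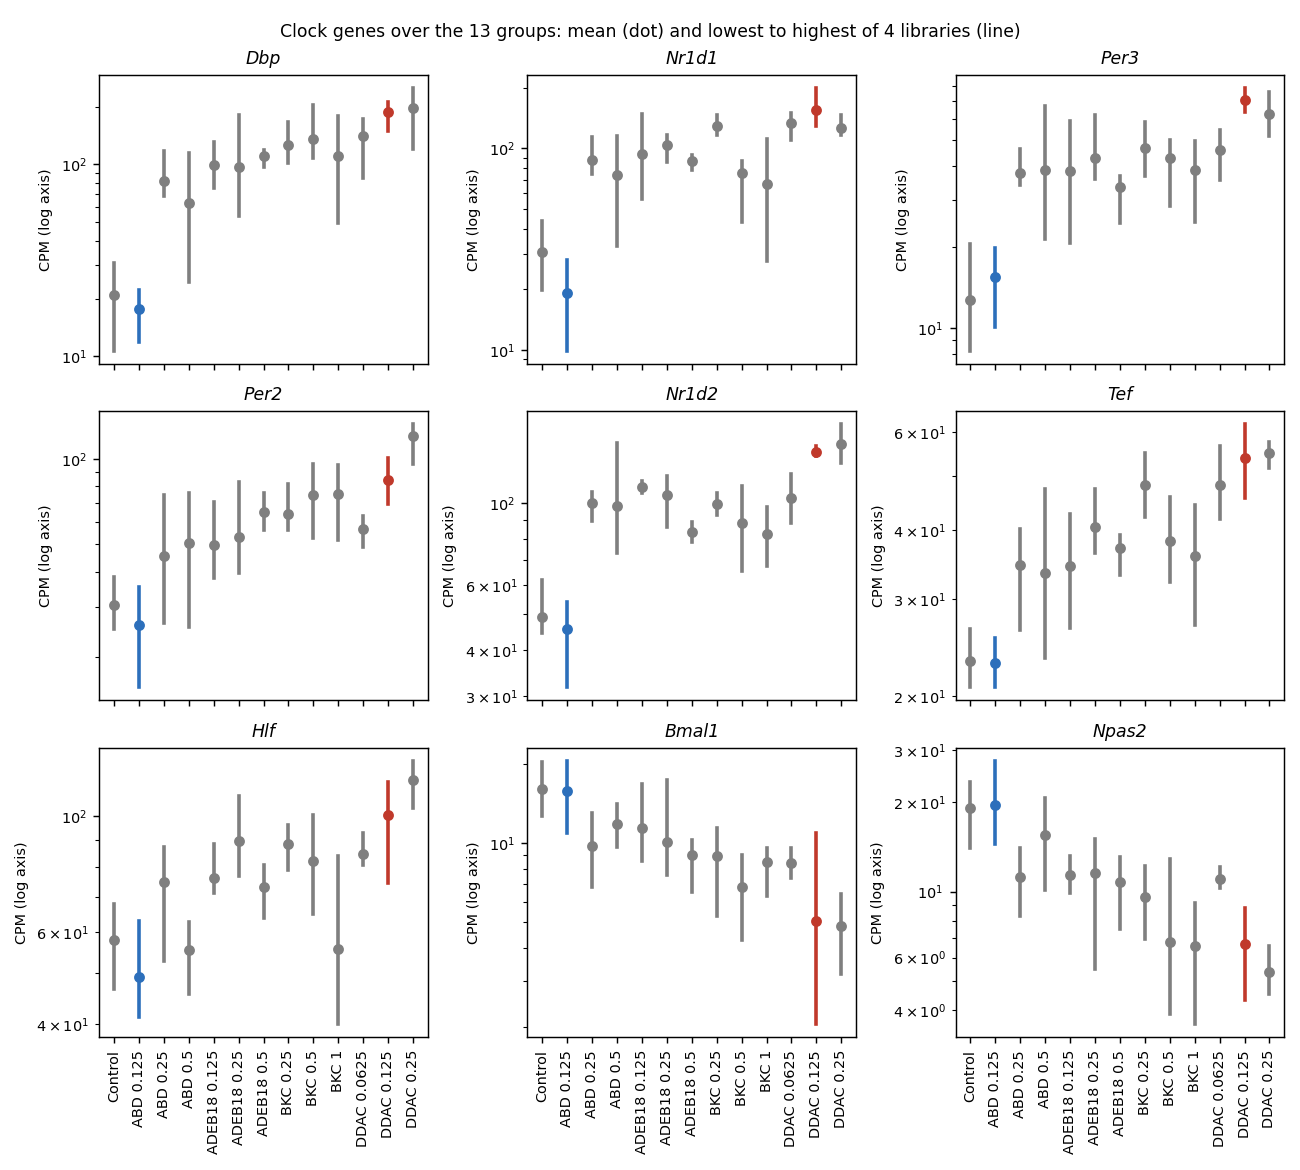
Each panel shows 1 of the 9 called clock genes in CPM on a log axis over the 13 groups, with the mean as a dot and the lowest to highest of 4 libraries as a line. ABD 0.125 is blue, DDAC 0.125 red and all other groups grey. ABD 0.125 and Control lie at one end in 8 of the 9 panels, Hlf excepted, and DDAC 0.125 lies near the other end.

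Both groups were also read against Control, which the 2 comparisons share. DDAC 0.125 against Control called 263 genes, 104 higher and 159 lower, and between 49 and 225 when 1 library was left out: 127 without Control replicate 3, 82 without Control replicate 4, and 49, 101 and 80 without DDAC replicates 1, 2 and 3. ABD 0.125 against Control called 0 genes by edgeR and 2 by DESeq2, with 728 at an unadjusted p under 0.05. Dbp differed from Control by 3.17 (edgeR adjusted p = 1.93e-06) in DDAC and by -0.23 in ABD. Per3 differed by 2.47 (edgeR adjusted p = 1.93e-06) in DDAC and by 0.28 in ABD. For Nr1d1 these values were 2.33 (edgeR adjusted p = 2.18e-05) and -0.67, and neither Dbp, Per3 nor Nr1d1 was called in ABD.

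Outside the clock, genes were called in 8 more of the 52 lists, beside 1.05% of all genes called higher and 0.916% lower. Of the 14 list genes called there, Psmd4 kept its call without the 3 libraries that held cardiac and fat RNA and the other 13 did not. With only the 8 libraries, Npc1, Psmc1, COX1 and Cox7a2 were not called. Immediate early genes, which cells switch on within minutes of a stimulus, had 2 of 20 called. Nr4a1, an orphan nuclear receptor, measured 81.3, 31.5, 73.9 and 46.9 CPM in DDAC and 4.47, 4.06, 11.9 and 13.1 in ABD, a log2 fold change of 2.81 ± 0.78 (edgeR adjusted p = 0.0466). Zfp36, which encodes the mRNA decay factor tristetraprolin, measured 102.7, 41.5, 71.8 and 47.4 CPM in DDAC and 23.9, 15.0, 28.5 and 27.9 in ABD, at 1.47 ± 0.40 (edgeR adjusted p = 0.0385). Groups did not overlap for either gene, which the rule for naming required of Nr4a1. Over all genes, 5.19% had no overlap with DDAC above and 4.64% with DDAC below. Leaving out any 1 of the 8 libraries ended the call of Nr4a1, with an adjusted p of up to 0.163, and 5 of the 8 ended that of Zfp36. Fos and Egr1, the best known genes of this class, differed by -0.10 ± 0.56 and 0.06 ± 0.48, and the median of the list was 0.14.

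Single genes of protein folding and degradation were called lower, while the medians of their lists were near 0. Hspa5, the endoplasmic reticulum chaperone BiP, measured 391, 461, 416 and 491 CPM in DDAC and 851, 848, 608 and 640 in ABD, a log2 fold change of -0.74 ± 0.16 (edgeR adjusted p = 0.00973). Atf4, the transcription factor of the integrated stress response, measured 180.4, 150.3, 165.7 and 188.6 CPM in DDAC and 252.5, 229.3, 220.2 and 280.1 in ABD, at -0.52 ± 0.12 (edgeR adjusted p = 0.0114). All DDAC libraries lay below all ABD libraries for both. These were 2 of 19 genes of the unfolded protein and integrated stress list, whose median was -0.01. In that list every DDAC library was above every ABD library for 3 genes and below for 2, beside 5.19% and 4.64% of all genes. Hspa5 lost its call without ABD replicate 1 or DDAC replicate 1, and Atf4 without DDAC replicate 2, with adjusted p up to 0.0594 and 0.0513.

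Proteasome genes had 3 of 17 called, all lower, beside 0.916% of all genes called lower, and a list median of -0.02. Every DDAC library was above every ABD library for 4 of the 17 and below for 2. Over all genes these shares were 5.19% and 4.64%. Psmd4, the subunit that receives ubiquitin chains, measured 92.0, 79.7, 84.0 and 85.1 CPM in DDAC and 143.3, 147.1, 117.2 and 154.2 in ABD, at -0.72 ± 0.14 (edgeR adjusted p = 0.00377). It was among the 17 genes called in all alternatives. Psma7, an alpha subunit of the core particle, and Psmc1, an ATPase of the cap, were at -0.46 ± 0.11 and -0.49 ± 0.14. The calls of Psma7 and Psmc1 ended in 5 and 6 of the 8 fits that left out 1 library, and the groups overlapped for Psmc1.

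Lysosomal genes were called in both directions, 2 higher and 1 lower of 23. Asah1, acid ceramidase, measured 52.9, 65.8, 55.3 and 45.3 CPM in DDAC and 27.7, 26.3, 36.2 and 33.6 in ABD, a log2 fold change of 0.83 ± 0.15 (edgeR adjusted p = 0.00326). Ctsl, the protease cathepsin L, was at 0.85 ± 0.24 (edgeR adjusted p = 0.0448), and its call ended in 7 of the 8 fits that left out 1 library. Npc1, which exports cholesterol from lysosomes, was at -0.79 ± 0.18 (edgeR adjusted p = 0.0105). ABD replicate 3 alone, at 284.1 CPM against 112.2 to 139.6 in the other ABD libraries, carried much of the Npc1 difference, which was -0.41 without it and no longer called. Cholesterol synthesis genes, 23 tested, had none called and a median of -0.16.

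Single genes of structural cells were called. Hopx, a homeodomain protein of alveolar type 1 cells, measured 451, 300, 352 and 269 CPM in DDAC and 115.0, 112.8, 191.8 and 168.6 in ABD, at 1.22 ± 0.29 (edgeR adjusted p = 0.0185). It was the only called gene of 12 type 1 markers, whose median was -0.01, and its call ended without ABD replicate 1 or 2 or DDAC replicate 1 or 3. In whole lung, a different number of cells of a type and a different amount of RNA per cell cannot be told apart. Postn, the matrix protein periostin, measured 426, 421, 397 and 319 CPM in DDAC and 145.2, 202.6, 233.6 and 230.3 in ABD, at 0.95 ± 0.19 (edgeR adjusted p = 0.00449). It was 1 of 21 fibroblast and collagen genes, with a list median of -0.11.

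Energy genes gave 1 call among 13 mitochondrially encoded and 1 among 25 nuclear oxidative phosphorylation genes. COX1, a mitochondrially encoded subunit of cytochrome c oxidase, measured 5076, 5913, 4757 and 1605 CPM in DDAC and 1809, 2267, 1897 and 1984 in ABD, at 1.125 ± 0.21 (edgeR adjusted p = 0.00373). DDAC replicates 1 to 3 were at 4757 CPM or more and replicate 4 was below every ABD library. COX1 was not called with only the 8 libraries or without the 3 that held cardiac and fat RNA, with an edgeR adjusted p of up to 0.0912, and Cox7a2 was not called in either fit. Cox7a2, a nuclear subunit of the same enzyme, was at 0.72 ± 0.19 (edgeR adjusted p = 0.038), with 4 of the 8 leave-one-out fits ending its call. Medians of both lists were 0.00 and -0.11.

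**Figure D3:**
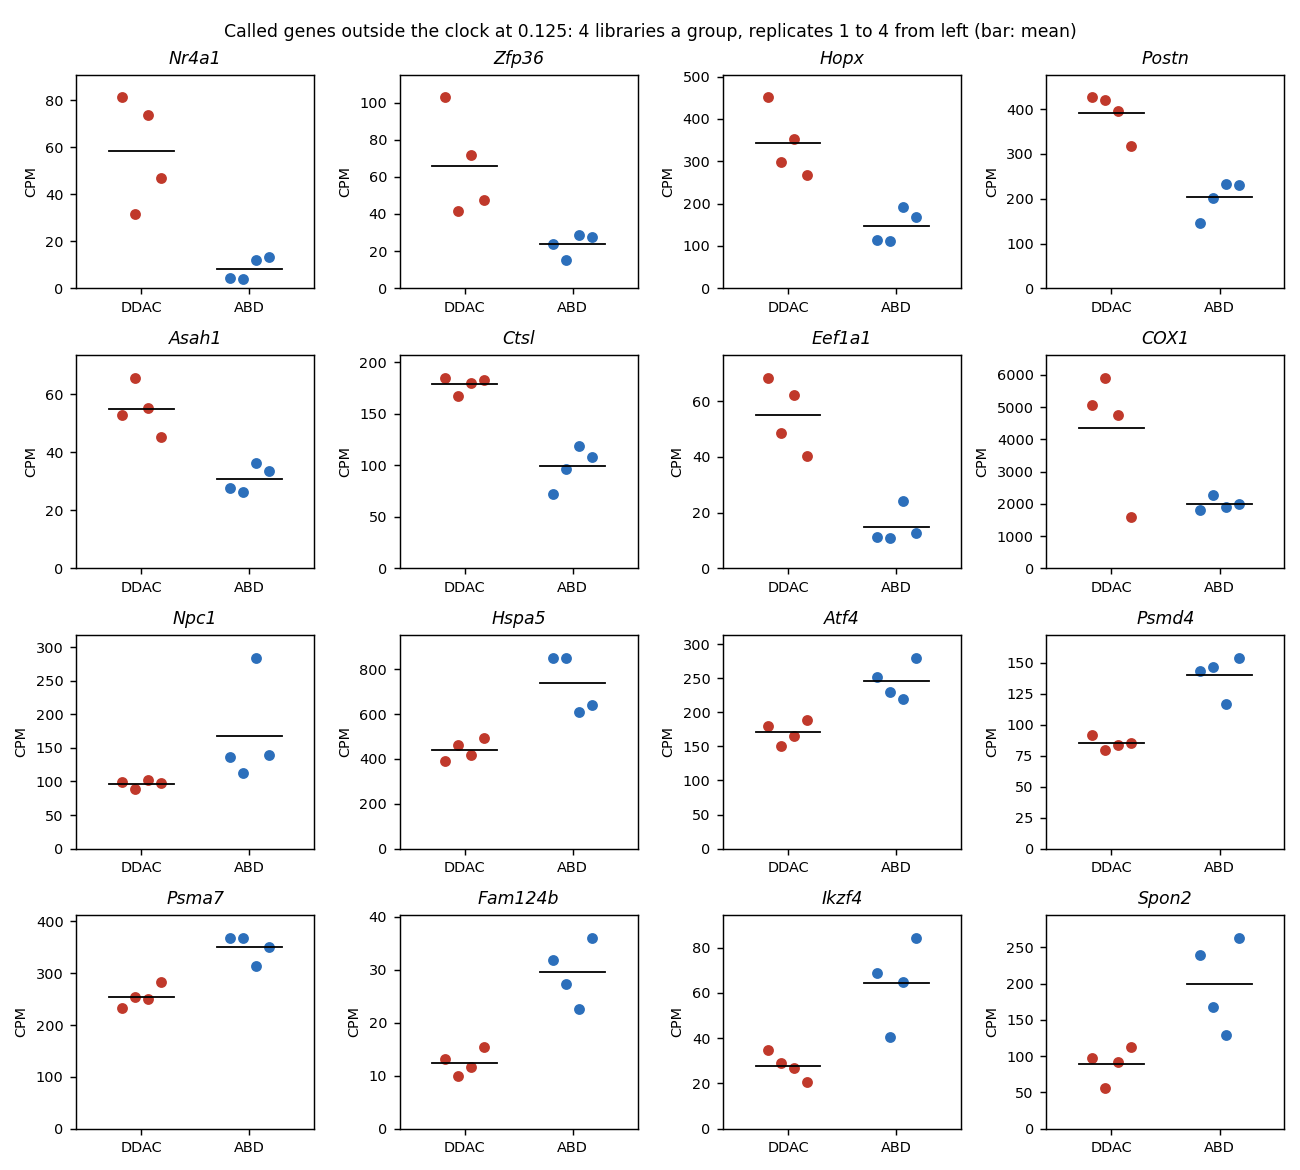
Each panel shows CPM on a linear axis from 0 for 1 called gene outside the clock, with DDAC replicates 1 to 4 in red, ABD replicates 1 to 4 in blue and the mean as a bar. Groups overlap for COX1, where DDAC replicate 4 stands at 1605 CPM, and ABD replicate 3 stands alone for Npc1 at 284.1 CPM.

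The largest increases outside these lists were in genes of varied function. Rpa3, the smallest subunit of replication protein A, was at 2.68 ± 0.69, and Ppp4c, the catalytic subunit of protein phosphatase 4, at 2.64 ± 0.70. Adam9, a membrane metalloprotease, was at 2.39 ± 0.57, Nup98, a nuclear pore protein, at 2.35 ± 0.63, and Taf4, a subunit of the general factor TFIID, at 1.96 ± 0.50. Their calls ended in 3 to 6 of the 8 fits that left out 1 library. Sgk3, a kinase related to SGK1, was at 1.99 ± 0.47, Tpbg, a membrane glycoprotein, at 1.95 ± 0.51, Tmem243 at 1.93 ± 0.44 and Lrrc57 at 1.85 ± 0.42, with calls ended in 1 to 6 such fits. Kbtbd4, an adaptor of a ubiquitin ligase, was at 1.95 ± 0.36 and kept its call in all 8. Without the 3 libraries that held cardiac and fat RNA none of these 10 genes was called by edgeR, and Taf4 was also not called with only the 8 libraries. No group overlapped for these 10 genes, which the rule for naming required. Some were low in ABD libraries, with Rpa3 at 0.743 to 2.65, Ppp4c at 0.618 to 2.43, Kbtbd4 at 1.14 to 4.34 and Tpbg at 1.06 to 4.17 CPM. In the RefSeq annotation Kbtbd4 overlaps Ndufs3, which differed by 0.0003 ± 0.13. Ppp4c overlaps Tbx6, Tmem243 overlaps Dmtf1, and Lrrc57 overlaps Snap23 and Haus2. The part of the unknown strand setting in these values was not tested.

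Eef1a1 measured 68.5, 48.5, 62.3 and 40.3 CPM in DDAC and 11.4, 10.9, 24.2 and 12.9 in ABD, a log2 fold change of 1.88 ± 0.34 (edgeR adjusted p = 0.00284). The gene has near-identical copies in the genome, so reads could have been split among them, and its level is uncertain for that reason. Oxr1 was at 0.59 ± 0.10 (edgeR adjusted p = 0.0017) and Mat2b at 0.66 ± 0.13 (edgeR adjusted p = 0.00373). Both were named after their values were seen, as were Mme, Tmprss2, Bcl9l, Pik3r3, Herc1 and Thra.

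Among the largest decreases, Fam124b measured 13.2, 9.90, 11.6 and 15.4 CPM in DDAC and 31.95, 27.4, 22.7 and 36.1 in ABD, a log2 fold change of -1.24 ± 0.24 (edgeR adjusted p = 0.00373). Ikzf4, a zinc finger factor of the Ikaros family, measured 34.8, 28.9, 26.7 and 20.6 CPM in DDAC and 68.6, 40.4, 64.9 and 84.3 in ABD, at -1.22 ± 0.27 (edgeR adjusted p = 0.0103). No libraries of the groups overlapped for these genes, which the rule for naming required. Ikzf4 overlaps Rps26, a ribosomal protein gene that differed by -0.10 ± 0.14. Gnl3l, a nucleolar GTPase, was at -1.15 ± 0.22 (edgeR adjusted p = 0.00377) and lost its call in 1 of the 15 alternatives, without the 3 libraries that held cardiac and fat RNA.

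Other decreases were Sgo2, which guards cohesion at centromeres, at -2.16 ± 0.47, Wdr86 at -1.72 ± 0.38, Rtp3, a receptor transporter protein, at -1.66 ± 0.41, and Zbbx at -1.5 ± 0.35. Adm, the vasodilator peptide adrenomedullin, was at -1.38 ± 0.38, Dcbld2, a membrane receptor, at -1.27 ± 0.33, Adamtsl5, a secreted ADAMTS-like protein, at -1.27 ± 0.32, and Agps, an enzyme of ether lipid synthesis, at -1.21 ± 0.29. Spon2, a secreted matrix protein, was at -1.16 ± 0.30, Palm2 at -1.13 ± 0.26, and Fibin, a secreted protein, at -1.05 ± 0.29. Every DDAC library lay below every ABD library for these 11 genes, which the rule for naming required. Sgo2 overlaps Kctd18 and Wdr86 overlaps Nub1 in the RefSeq annotation. Their calls ended in 2 to 7 of the 8 fits that left out 1 library, ABD replicate 1 and DDAC replicate 1 most often. Without the 3 libraries that held cardiac and fat RNA, Wdr86 alone of the 11 kept its call. With only the 8 libraries, Sgo2, Zbbx, Dcbld2, Agps, Palm2 and Fibin were not called.

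Smaller decreases that kept every call were Mme, the peptidase neprilysin, at -0.81 ± 0.15, Tmprss2, a serine protease of the cell surface, at -0.80 ± 0.16, and Bcl9l, a coactivator of beta-catenin, at -0.79 ± 0.13. Pik3r3, a regulatory subunit of phosphoinositide 3-kinase, was at -0.65 ± 0.13, and Herc1, a very large ubiquitin ligase, at -0.58 ± 0.12. Bcl9l measured 131.0, 120.7, 145.0 and 126.0 CPM in DDAC and 239.2, 202.6, 186.9 and 273.4 in ABD (edgeR adjusted p = 0.001). Groups did not overlap for Bcl9l.

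Inflammation and immune cell lists, 16 in number with 224 genes tested, had 0 members called at 0.125 by edgeR over all 52 libraries. The shares called over all genes were 1.05% higher and 0.916% lower. With only the 8 libraries edgeR called a complement gene. DESeq2 called 1 member in the monocyte chemokine list, 1 in the type 2 response list and 2 in the complement list. Ccl2, the main monocyte chemokine, differed by 0.31 ± 0.53 with a 95% interval from -0.75 to 1.37, and S100a8, a neutrophil protein, by 0.51 ± 0.41 with an interval from -0.31 to 1.34. Ccl12, a related monocyte chemokine, stood at 5.61, 3.36, 2.86 and 5.31 CPM in DDAC and 0.761, 0.972, 1.22 and 0.619 in ABD. Its log2 fold change of 2.22 ± 0.77 was not called (edgeR adjusted p = 0.111). Ptgs2, the inducible cyclooxygenase, was at 1.99 ± 0.59 (edgeR adjusted p = 0.0615), and DDAC replicate 3 lay within the ABD range.

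Of all genes tested, 48.4% had positive log2 fold changes. Among 31 interferon-stimulated genes 28 were positive and 3 negative, with a median of 0.25 and 0 called by edgeR. Mean log2 CPM of these 31 overlapped between groups, at 3.63 to 4.45 in DDAC libraries and 3.37 to 4.12 in ABD libraries. Of 18 oxidative stress genes driven by Nrf2, 14 were positive, the median was 0.33 and 0 were called by edgeR. Groups did not overlap, with DDAC above, for 5 of these 18 genes, beside 5.19% of all genes tested with DDAC above and 4.64% with DDAC below. Nqo1, a quinone reductase, was at 0.43 ± 0.14 (edgeR adjusted p = 0.0857). No member was called in the lists of surfactant, club, ciliated, goblet, basal, endothelial, smooth muscle, mesothelial, mitosis, DNA replication, heat shock, p53 or xenobiotic genes by edgeR over all libraries. DESeq2 called 1 surfactant and alveolar type 2 gene and 1 gene of the Nrf2 list, beside 730 over all genes. With only the 8 libraries edgeR called 1 surfactant, 1 club cell and 1 complement gene, beside 232 over all genes.

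Cardiac muscle genes had negative log2 fold changes in 17 of 18 and fat genes in 11 of 11, with medians of -1.04 and -2.17. EdgeR called 0 of them, while DESeq2 called 1 fat gene, beside 730 over all genes. Myh6, a myosin heavy chain of heart muscle, was at 682.8 CPM in DDAC replicate 2, 1075 in ABD replicate 2 and 499.5 in ABD replicate 3. It was at 1.83 CPM or less in the other 5 libraries. Erythroid genes summed to 19400 to 34830 CPM in DDAC and 31860 to 48250 in ABD, and 9 of 11 had negative log2 fold changes. The part of blood left in the lungs in the other results was not tested.

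**Figure D4:**
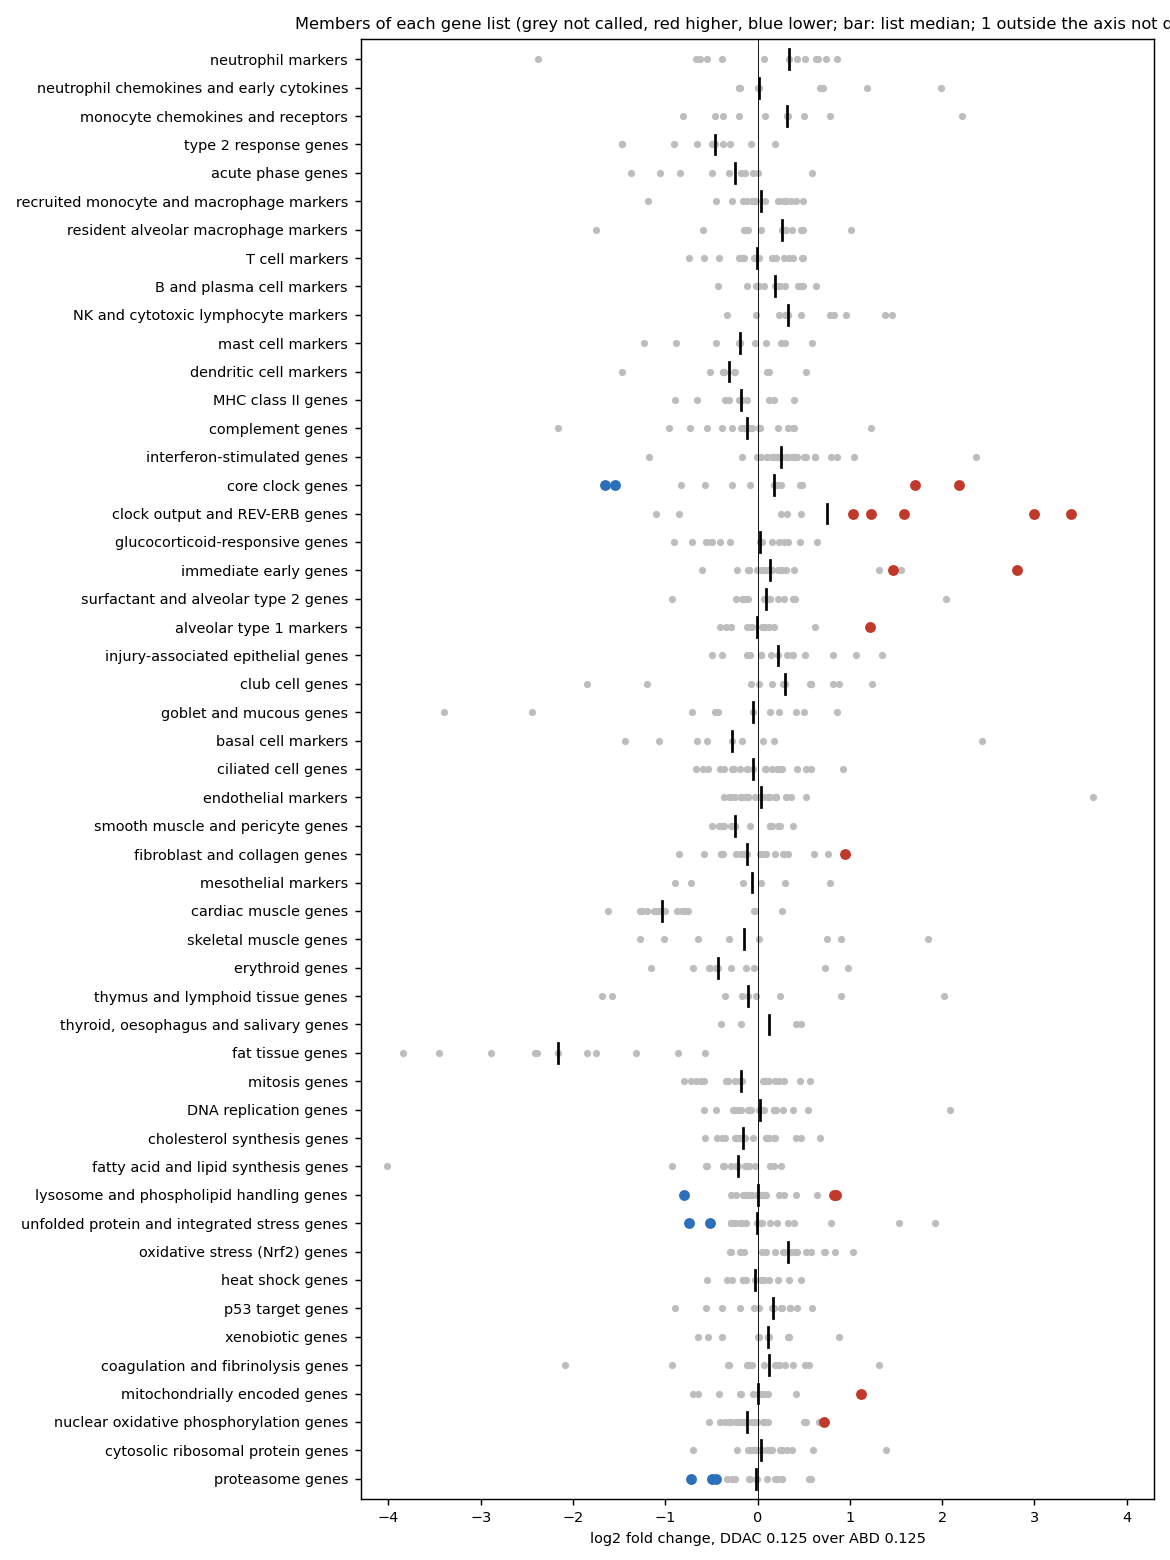
Each row is a gene list and each point a member's log2 fold change of DDAC over ABD at 0.125 on the x axis, grey where not called, red where higher and blue where lower, with the list median as a bar. The clock rows hold 9 of the 23 called members, and the cardiac muscle and fat rows have medians of -1.04 and -2.17 with no member called.

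The same compounds were compared at 0.25, in 8 other libraries. There 229 genes were called, 154 higher in DDAC (0.865% of those tested) and 75 lower (0.421%), or 136 and 103 with RLE size factors in place of TMM. The count was 8, 303, 14 and 915 without ABD 0.25 replicates 1 to 4. It was 38, 34, 102 and 122 without DDAC 0.25 replicates 1 to 4. Of the 350 genes called at 0.125, 335 had the same sign at 0.25, 185 of the 187 higher and 150 of the 163 lower genes, against 66.1% of all genes tested. Calls were shared for 64 genes, 18.3% of the 350 and 27.95% of the 229, and 227 had the same sign with an unadjusted p under 0.05 at 0.25. The median absolute log2 fold change of the 350 was 0.46 at 0.25 against 0.75 at 0.125, where they had been selected.

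Per2, Tef and Hlf were called at both doses. At 0.25 Per2 was at 1.40 ± 0.28 (edgeR adjusted p = 0.0104), Tef at 0.67 ± 0.17 (edgeR adjusted p = 0.032) and Hlf at 0.65 ± 0.18 (edgeR adjusted p = 0.046). Thra at -0.65 ± 0.14, Postn at 0.83 ± 0.18, Asah1 at 0.68 ± 0.15, Zfp36 at 1.55 ± 0.40, Psmd4 at -0.59 ± 0.14 and Gnl3l at -1.09 ± 0.22 were called at 0.25 too. Dbp was at 1.27 ± 0.37 (edgeR adjusted p = 0.0654), Nr1d2 at 0.53 ± 0.16 (edgeR adjusted p = 0.075) and Bmal1 at -1.01 ± 0.34 (edgeR adjusted p = 0.114), none of them called there. COX1 and Fam124b had the opposite sign at 0.25, at -0.33 ± 0.21 and 0.15 ± 0.23, neither called.

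The change of the difference between doses was tested as an interaction. It called 1 of 17796 genes, Nr1d1, whose log2 fold change was 0.53 ± 0.31 at 0.25, a change of -2.47 ± 0.45 from 0.125 (edgeR adjusted p = 0.0352). Nr1d1 was called in 6 of the 16 refits that left out 1 library and not called in 10. ABD 0.25 libraries averaged 87.6 ± 17.7 CPM of Nr1d1 against 19.2 ± 9.33 at ABD 0.125, and DDAC libraries 126.9 ± 12.8 against 155.1 ± 31.02. The change of Dbp was -2.13 ± 0.53 (edgeR adjusted p = 0.381) and that of Per3 -1.46 ± 0.41 (edgeR adjusted p = 0.786). Glucocorticoid-responsive genes had 0 of 15 called at 0.125 and 3 at 0.25, all higher in DDAC, namely Zbtb16 at 2.54 ± 0.44, Tsc22d3 at 0.95 ± 0.20 and Klf9 at 0.79 ± 0.19. The change between doses was not called for these 3, and the smallest adjusted p was 0.0617 for Zbtb16.

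**Figure D5:**
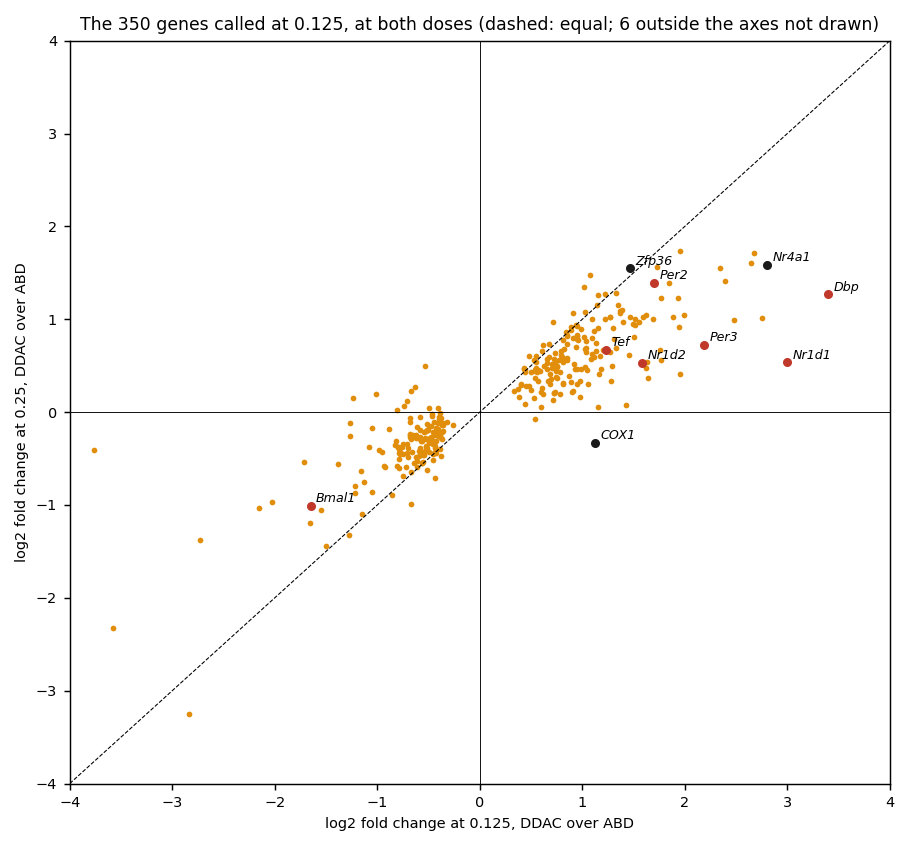
Each point is 1 of the 350 genes called at 0.125, with the log2 fold change of DDAC over ABD at 0.125 on the x axis and at 0.25 on the y axis, and the dashed line marks equal values. Red points are clock genes. Points lie mostly in the 2 quadrants of equal sign, and Nr1d1 has 3.00 at 0.125 and 0.53 at 0.25.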

How the data were processed

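Whole-lung RNA from 52 rat samples in 13 groups of 4 was measured by QuantSeq 3' sequencing from 500 ng of RNA, per the labels' protocols. The authors deposited raw read counts per gene symbol, 34034 symbols per library. Per the submitters' processing notes the tools were HTSeq, STAR and fastp on mRatBN7.2, with no versions, and the strand setting is not given in the sources used here. Such counts depend on how well 3' ends are annotated.

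From these counts, genes with enough reads by edgeR's filterByExpr (17796) were scaled by TMM and fitted with edgeR 4.0.16 (quasi-likelihood test, R 4.3.3, limma 3.58.1) over all 52 libraries, 1 term per group, with 39 residual degrees of freedom. P-values were adjusted by Benjamini-Hochberg over all genes tested and called under 0.05. CPM of single genes were computed from the counts and TMM-scaled library sizes. Summed CPM of gene lists were computed from total counts without TMM scaling. Named genes were the 15 largest called changes in each direction with no overlap between groups and a mean CPM of 5 or more on either side, and members of 52 gene lists. Members and lists were chosen with earlier results of these data known. Alternatives were other size factors and filters, only the 8 libraries, a replicate block, DESeq2 1.42.0, and leaving out libraries. The fit was tested on simulated data. Promoters came from RefSeq (GRCr8), of which 29433 of 34034 symbols matched by name. Lavage measurements were not used here.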

Additional observations from a re-analysis of the deposited data

Results flagged for a closer look

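Among 96 groups of 4 libraries examined, 4 held a library far from the other 3, and chance flags about 1 in 20 groups. Rpa3 was at 2.65 CPM in ABD replicate 2 against 0.743 to 0.956 in the other ABD 0.125 libraries. In ABD replicate 3, Eef1a1 was at 24.2 CPM against 10.9 to 12.9, Lrrc57 at 8.86 CPM against 3.80 to 4.58, and Npc1 at 284.1 CPM against 112.2 to 139.6 in the other 3. For Nr1d1 the difference between DDAC and ABD itself differed between doses, by -2.47 on the log2 scale from 0.125 to 0.25, by the edgeR interaction test.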

How the results depend on the processing

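For DDAC against ABD at 0.125 the 350 called genes became 663 by the study's cutoff, 114 with a 2-fold requirement, 232 with only the 8 libraries, 730 by DESeq2 and 45 without the 3 libraries that held cardiac and fat RNA, which was chosen after seeing the data. Leaving out 1 library gave 75 to 400. At 0.25 the 229 became 536 by DESeq2 and 8 to 915 with 1 library left out. The interaction went from 1 to 3 without the filter on low counts, 11 by DESeq2 and 0 to 3 with 1 library left out. DDAC against Control went from 263 to 174 without that filter, 576 by DESeq2 and 49 to 225 with 1 library left out. ABD against Control gave 2 by DESeq2 and 0 in each fit that left out 1 library. The cause of these shifts was not tested. RLE size factors gave 374 and a minimum of 1 CPM gave 363 at 0.125. Deviations of log2 CPM from each group's own mean correlated at 0.104, 0.343, -0.15 and 0.0463 between same-numbered libraries 1 to 4. Pairs with different numbers ranged from -0.316 to 0.25. These values do not decide whether the numbers pair the libraries, and the replicate block gave 404. Over single genes followed, 544 values kept their side of the threshold, 176 were no longer called and 0 reversed. Counts of called list members stayed within 1.5 times in 720 recounts and moved in 60. With 4 libraries a group, differences of low-count genes such as Ccl2 carry wide intervals.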
